A study of Mus musculus with 6 samples.

Results

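The genes described here make, store and export cholesterol and other lipids. They were measured in central nervous system-associated macrophages (CAMs), which line the perivascular spaces, meninges and choroid plexus. The set was a fixed list of 37 gene symbols, and all 37 were found among the 35598 gene identifiers of each table through the GENCODE M21 annotation of mm10. It was divided by role into 18 synthesis genes (SREBP control, sterol enzymes and fatty acid enzymes) and the other 19, called handling genes. The handling genes cover uptake, transport, storage and efflux, and also sterol-sensing receptors, oxysterol synthesis and genes known from lipid-laden macrophages. Bulk RNA sequencing compared 3 libraries from young male C57BL/6 mice, aged 2 months, with 3 libraries from aged male C57BL/6 mice of 18 months. No genotype or agent is named in the labels, and every library came from brain cells sorted as CD3-, CD11b+, CD45+ and CD206+. The labels do not say whether libraries of a group were separate or pooled animals, so p-values cover the variation among these 6 libraries, part of which may be technical.

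Macrophages take up lipoprotein cholesterol and free it in the lysosome. They then pass it on to apolipoprotein carriers through ABC transporters, or esterify it and keep it in lipid droplets. Oxysterols, which are oxidised forms of cholesterol, activate the liver X receptors (LXRs) and with them Apoe and the efflux transporters. When sterol in the endoplasmic reticulum is low, SCAP escorts SREBP proteins to be cut, and the released fragment turns on the enzymes of sterol and fatty acid synthesis. In the brain most cholesterol is made locally and is carried on particles that contain apolipoprotein E.

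Promoter sequence was available for 27 of the 37 members in the RefSeq table (GRCm38.p6, the same genome as mm10). Abcg1, Apoc1, Fabp5, Fdft1, Fdps, Lpl, Npc1, Scd1, Scd2 and Sqle were not matched. The 250 bases before each start were searched on both strands, and none of the motifs contains another. The CCAAT box, which binds NF-Y, a partner of SREBP at sterol genes, was found in 12 of 13 synthesis promoters (92.3%), in 6 of 14 handling promoters (42.9%) and at 37.5% of all 27025 genes with a promoter. A sterol regulatory element written as TCACNCCAC was found in Hmgcs1 and in no other member, against 1.22% of all genes. The E-box CACGTG was found in 4 of 13 and 2 of 14 promoters, against 6.86% of all genes. The cyclic AMP response element TGACGTCA was found in Ch25h alone among the members, against 1.77%. The LXR direct repeat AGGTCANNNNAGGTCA was found in no member and in 0.0148% of all genes. Windows of 60 bases are shown for Nsdhl, Plin2 and Ch25h, which had a motif match and were chosen after their values were seen. A window is also shown for Hmgcs1 as the member with a sterol element. Capitals mark the CCAAT box on either strand (Nsdhl, Plin2), the cyclic AMP element (Ch25h) and the sterol element (Hmgcs1). A match describes letters and is not evidence of binding.
Nsdhl, chrX:72918461-72918520, plus strand: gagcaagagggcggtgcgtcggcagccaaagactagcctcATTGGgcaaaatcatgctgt
Plin2, chr4:86670101-86670160, minus strand: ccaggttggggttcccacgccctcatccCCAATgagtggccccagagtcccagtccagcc
Ch25h, chr19:34475176-34475235, minus strand: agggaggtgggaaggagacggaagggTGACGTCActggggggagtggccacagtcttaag
Hmgcs1, chr13:119690188-119690247, plus strand: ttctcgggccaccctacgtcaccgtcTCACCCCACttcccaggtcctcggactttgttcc

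The libraries held 26605077 to 33306093 counts, and levels are given as CPM (counts scaled to a library of fixed size) after TMM scaling. In every library, 5 to 7 of the 37 members had 3 counts or fewer. The border macrophage genes Mrc1 (which encodes CD206, used in the sort), Pf4 and Lyve1 were present in all 6 libraries. Sums of cell type markers differed between libraries. The 12 microglia markers summed to 6426, 4741 and 7350 CPM at 2 months and 10039, 17809 and 14056 CPM at 18 months, and 10 of the 12 (Sall1 and Gpr34 excepted) had all 3 aged values above all young values. The 10 border macrophage markers summed to 25023, 27258 and 23873 CPM at 2 months and 16425, 7700 and 13652 CPM at 18 months, with 5 of the 10 lower in each aged library. Aged replicate 3 stood apart with 6.65 CPM of neutrophil markers, against 7982 to 37769 CPM in the others. Choroid plexus markers were at 11863 CPM in young replicate 3 and 8181 CPM in aged replicate 3, against 572 to 1380 CPM elsewhere. In bulk libraries, fewer cells of a type and less RNA per cell cannot be told apart.

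No member was called between ages. Of the 37 members, 32 passed the low-count filter, and 0 had an adjusted p under 0.05 in edgeR's quasi-likelihood test, where 0.00938% of the 10661 genes tested were called. At an unadjusted p under 0.05, 4 members were higher with age (Apoe, Ch25h, Plin2 and Nsdhl) and 0 were lower, against 3.63% of all genes higher and 2.04% lower. The 4 make 12.5% of the members tested. The DESeq2 Wald test called Ch25h (adjusted p = 0.0103) and Nsdhl (adjusted p = 1.79e-09), among 154 of 10661 genes called. limma-voom called 0 members and 0 of all genes. Without aged replicate 3, Nsdhl alone of the 4 kept an unadjusted p under 0.05. The aged levels lay wholly above the young ones for 6 members tested (18.8%; 7.54% of all genes), which were Apoe, Ch25h, Lipa, Plin2, Cst7 and Nsdhl. They lay wholly below for 1, Apoc1 (3.12%; 7.19% of all genes). All 7 had a mean of at least 10 CPM, a level at which 8.84% of all genes lay wholly above and 6.95% wholly below. These members were listed with earlier results of these data known, so the counts describe the list.

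**Figure D1:**
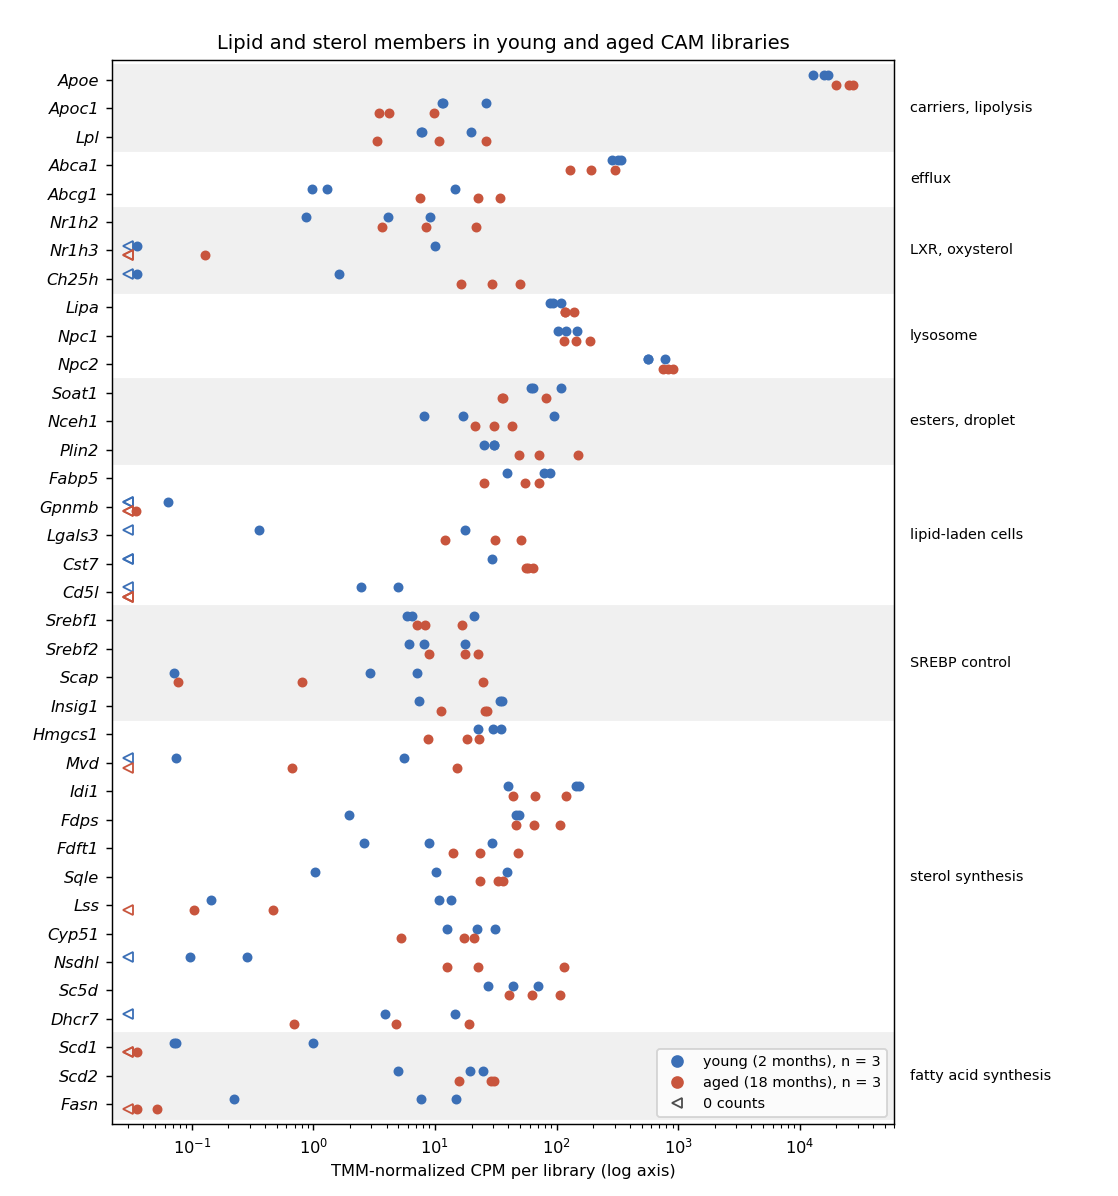
Each point is 1 library's TMM-normalized CPM on a log axis, for all 37 members ordered by role (blue, 3 young libraries; red, 3 aged libraries; open triangles, 0 counts). Apoe lies far to the right of all others, and many members below about 10 CPM scatter over orders of magnitude within a single age group.

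Apoe, the lipid carrier, was the most abundant member by a wide margin, with a mean of 11681 TPM (a transcript measure that allows for length) over the 6 libraries. The gene (ENSMUSG00000002985.16, chromosome 7, 19696109 to 19699188) was at 15940, 16924 and 12923 CPM at 2 months and 20019, 27343 and 25592 CPM at 18 months. All 3 aged libraries lay above all 3 young ones, and the highest was aged replicate 2. The means were 15262 ± 2085 and 24318 ± 3824 CPM (SD, n = 3 each), a log2 fold change of 0.67 (SE 0.26, 95% interval 0.08 to 1.26; edgeR unadjusted p = 0.0301, adjusted p = 0.797). The edgeR unadjusted p was 0.0887, 0.0683 and 0.135 without young replicates 1, 2 and 3. It was 0.0124, 0.00889 and 0.0941 without aged replicates 1, 2 and 3. Apoe ranked between 2 and 11 among all genes by CPM in each library. It made 91.0% to 94.6% of the summed CPM of the 19 handling genes, so that sum is in effect a measure of Apoe. The aged libraries with more Apoe were also those with more microglia marker RNA and less border macrophage marker RNA, and the part of these in the result was not tested.

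Apoc1, which encodes a small apolipoprotein, lies 3448 bases from Apoe on the same strand, and its levels ran the other way. Its levels were 11.8, 11.4 and 26.1 CPM at 2 months and 4.20, 3.45 and 9.90 CPM at 18 months. The groups did not overlap, but the highest aged and lowest young libraries were close, and the log2 fold change was -1.49 (SE 1.28, edgeR adjusted p = 0.993). There were 495 to 1490 Apoe counts per Apoc1 count in young libraries and 2590 to 7940 in aged ones, a ratio that library scaling cannot change. A pair of further apolipoprotein genes follows in the cluster, 141 bases apart. Apoc2, the cofactor of lipoprotein lipase, was at 8.04, 0 and 0 CPM at 2 months and 56.1, 11.1 and 20.4 CPM at 18 months (log2 fold change 3.44, SE 2.23, edgeR adjusted p = 0.959). Apoc4 was at 15.1, 14.5 and 0.0358 CPM at 2 months and 6.12, 2.88 and 4.28 CPM at 18 months. So the neighbours of Apoe did not share a direction in their fitted values, and none of the 4 genes was called. Lpl, the lipase that frees fatty acids from lipoproteins, was at 19.8, 7.85 and 7.73 CPM at 2 months and 10.8, 26.3 and 3.36 CPM at 18 months, with full overlap.

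The efflux transporters gave no common picture. Abca1, which loads cholesterol onto lipid-poor apolipoproteins, was at 339, 317 and 286 CPM at 2 months and 302, 130 and 191 CPM at 18 months. Aged replicate 1 lay within the young range and the other aged libraries below it. The log2 fold change was -0.60 (SE 0.37, 95% interval -1.42 to 0.23, edgeR adjusted p = 0.950), and -0.96 (unadjusted p = 0.0298) without aged replicate 1. Abcg1, which exports cholesterol to formed particles, was at 14.7, 1.30 and 0.966 CPM at 2 months and 7.47, 22.7 and 34.4 CPM at 18 months (log2 fold change 1.93, SE 1.45, adjusted p = 0.986). Young replicate 1 overlapped the aged range, and without it the log2 fold change was 4.25 (unadjusted p = 0.0337). Counts of Apoe per count of Abca1 were 47.1, 53.4 and 45.2 in young and 66.4, 211 and 134 in aged libraries, without overlap. This ratio was chosen after its values were seen. Among aged libraries it rose with the microglia marker sum and fell with the border macrophage marker sum, and among young libraries the reverse held. The part of these markers in the ratio was not tested.

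**Figure D2:**
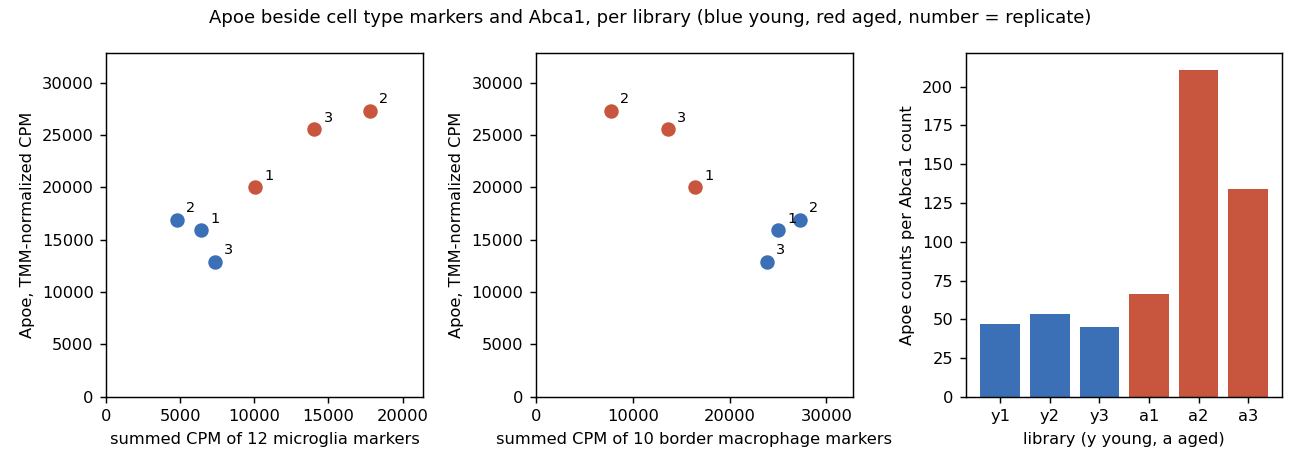
Left and middle, Apoe CPM against the summed CPM of 12 microglia and 10 border macrophage markers in each library (numbers are replicates; blue young, red aged). Right, Apoe counts per Abca1 count, from 45.2 to 53.4 in young and 66.4 to 211 in aged libraries.

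Ch25h, which makes the oxysterol 25-hydroxycholesterol, was nearly absent from young libraries and present in all aged ones. The gene (chromosome 19, 34473778 to 34475164) had 0, 44 and 1 counts in young and 840, 633 and 1415 counts in aged libraries. These are 0, 1.64 and 0.0358 CPM against 29.2, 16.4 and 50.02 CPM, and the lowest aged library lay above the highest young one. The log2 fold change was 5.83 (SE 2.01, 95% interval 1.32 to 10.33; edgeR unadjusted p = 0.0165, adjusted p = 0.709). Without young replicate 2, which held most of the young reads, it was 10.55 (adjusted p = 0.811). Without aged replicate 3 the unadjusted p was 0.0522. A gene on the opposite strand, Gm26902, overlaps Ch25h and had a mean of 0.436 CPM. Of the LXR genes, Nr1h2 (LXR beta) was at 0.865, 9.16 and 4.11 CPM at 2 months and 3.65, 21.8 and 8.48 CPM at 18 months, with overlap. Nr1h3 (LXR alpha) was at 9.98 CPM in young replicate 2 and at or under 0.130 CPM in every other library, and did not pass the low-count filter.

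Genes of lysosomal cholesterol release differed less in size. Lipa, the acid lipase that hydrolyses cholesterol esters, lies 17153 bases from Ch25h and was at 93.4, 108 and 87.9 CPM at 2 months and 118, 139 and 116 CPM at 18 months. The groups did not overlap, with a log2 fold change of 0.36 (SE 0.36, edgeR adjusted p = 0.993). Npc2, which hands cholesterol to Npc1 in the lysosome, was at 778, 567 and 567 CPM at 2 months and 747, 818 and 910 CPM at 18 months. Young replicate 1 exceeded aged replicate 1, and the log2 fold change was 0.37 (SE 0.28). Npc1, the membrane exporter, was at 120, 148 and 103 CPM at 2 months and 116, 146 and 188 CPM at 18 months, and the log2 fold change was 0.28 (SE 0.37). The 95% intervals reached at most 1.17, 1.01 and 1.10 on the log2 scale for Lipa, Npc2 and Npc1. The annotated span of Npc1 overlaps that of Rmc1 on the opposite strand, and Rmc1 had a mean of 8.24 CPM.

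Plin2, the coat protein of lipid droplets, was higher in each aged library. The gene (chromosome 4, 86648386 to 86670060) was at 30.8, 30.4 and 25.5 CPM at 2 months and 48.9, 71.3 and 150 CPM at 18 months. The young libraries were close together and the aged ones spread, with aged replicate 3 the highest. Its log2 fold change was 1.64 (SE 0.57, 95% interval 0.36 to 2.92; edgeR unadjusted p = 0.0174, adjusted p = 0.725), and 1.06 (unadjusted p = 0.122) without aged replicate 3. Soat1, which esterifies cholesterol for storage, was at 63.9, 109 and 61.5 CPM at 2 months and 35.6, 36.6 and 82.0 CPM at 18 months (log2 fold change -0.61, SE 0.54). Nceh1, which hydrolyses stored esters, was at 8.12 to 95.7 CPM at 2 months and 21.4 to 43.4 CPM at 18 months. Both overlapped between ages.

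Genes known from lipid-laden macrophages and from disease-associated microglia were uneven. Cst7, a cystatin that inhibits cathepsins, was at 29.7, 0 and 0 CPM at 2 months and 64.3, 57.9 and 56.6 CPM at 18 months. The aged libraries agreed closely while young replicate 1 alone of the young ones held reads, and the log2 fold change was 2.59 (SE 2.04, edgeR adjusted p = 0.993). Without young replicate 1 it was 13.81 with an unadjusted p = 2.4e-05 (adjusted p = 0.140), a fit against young libraries at 0. The microglia marker sum was higher in all aged libraries too. At neither age was Cst7 highest in the library with the highest sum. The part of these markers in the Cst7 levels was not tested. Lgals3, which encodes galectin-3, was at 17.6, 0 and 0.358 CPM at 2 months and 11.99, 31.2 and 50.9 CPM at 18 months, and here young replicate 1 overlapped the aged range. Fabp5, a fatty acid binding protein gene, was at 38.9, 78.9 and 88.6 CPM at 2 months and 55.0, 25.3 and 72.0 CPM at 18 months. Gpnmb, a glycoprotein gene of foam cells, was at or under 0.0640 CPM in every library. Cd5l, a macrophage protein that binds lipids, had 156, 0 and 69 counts in young and 0 counts in each aged library. Its young mean of 2.49 CPM was at least 23.5-fold higher than in aged libraries, set at a floor of 3 counts per library, and as it was absent from young replicate 2 it was not tested.

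**Figure D3:**
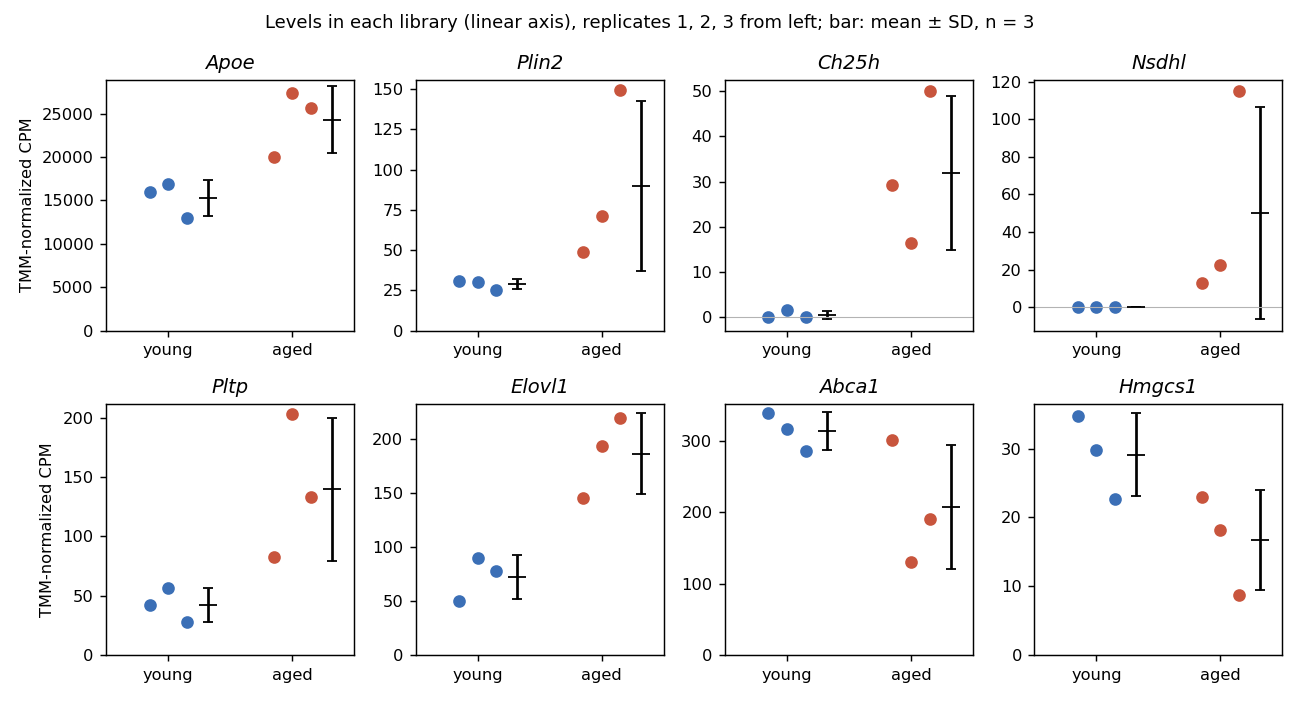
Levels of 6 members and 2 other pathway genes (Pltp and Elovl1) in each library on linear axes, with mean ± SD (n = 3) beside the points (blue young, red aged). Apoe, Plin2, Ch25h, Nsdhl, Pltp and Elovl1 do not overlap between ages, while Abca1 and Hmgcs1 do.

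Among the SREBP control genes no age group stood apart. Insig1, which holds SCAP in the endoplasmic reticulum and is itself an SREBP target, was at 34.4, 35.5 and 7.40 CPM at 2 months and 26.8, 11.2 and 26.0 CPM at 18 months. Srebf2, which encodes the SREBP of sterol synthesis, was at 6.08, 17.8 and 8.08 CPM at 2 months and 22.5, 17.7 and 8.98 CPM at 18 months. Srebf1, the SREBP gene of fatty acid synthesis and an LXR target, was at 5.90 to 20.9 CPM at 2 months and 7.10 to 16.8 CPM at 18 months. Scap was at 0.0715 to 7.08 CPM in young libraries and reached 25.1 CPM in aged replicate 3. Their fitted log2 fold changes were -0.27 (SE 0.92), 0.62 (SE 1.15), -0.05 (SE 1.29) and 1.36 (SE 2.24). Single libraries set some of these signs, since Scap was at -2.93 without aged replicate 3, Srebf1 at 0.80 without young replicate 1, and Insig1 near 0 without young replicates 1 or 2 or aged replicate 2. Intervals this wide leave large changes in either direction undetected.

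The sterol synthesis enzymes had no shared direction. Of the 11, fitted values lay above 0 for 7 (63.6%, against 49.3% of all genes) and below 0 for 4. The groups overlapped for 10 of 11. The 1 higher in each aged library made 9.09%, near the 7.54% of all genes. The exception was Nsdhl, which encodes a sterol dehydrogenase that removes the methyl groups at carbon 4. The gene (chromosome X, 72918557 to 72958514) had 3, 0 and 8 counts in young and 364, 873 and 3252 counts in aged libraries, or 0.0961, 0 and 0.286 CPM against 12.6, 22.6 and 115 CPM. Each aged library lay far above each young one, and aged replicate 3 far above the other aged ones. Its log2 fold change was 8.57 (SE 1.70, 95% interval 4.76 to 12.38; edgeR unadjusted p = 0.000583, adjusted p = 0.378), the smallest p-value of the members. It was called by edgeR with no low-count filter (adjusted p = 1.27e-05), where 62 of 22680 genes were called.

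Enzymes at other steps of the pathway showed different patterns. Hmgcs1, which makes HMG-CoA at its entry, was at 34.8, 29.9 and 22.7 CPM at 2 months and 23.0, 18.2 and 8.73 CPM at 18 months, with young replicate 3 just under aged replicate 1. Its log2 fold change was -0.81 (SE 0.84). Idi1, an isomerase of the isoprenoid units, was at 145, 39.7 and 154 CPM at 2 months and 119, 66.9 and 44.2 CPM at 18 months. Fdps, which builds farnesyl diphosphate, was at 49.3, 46.4 and 1.97 CPM at 2 months and 46.0, 65.6 and 106 CPM at 18 months. Sc5d, a desaturase of the last steps, was at 27.1, 70.2 and 43.9 CPM at 2 months and 62.4, 40.3 and 108 CPM at 18 months. In these 3 enzymes the groups overlapped. When any 1 library was left out, the log2 fold changes kept their sign but varied in size. They lay between -1.016 and -0.265 for Idi1, 0.608 and 1.594 for Fdps, and 0.132 and 0.990 for Sc5d.

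The squalene steps were just as varied. Sqle, squalene epoxidase, was at 10.2, 38.9 and 1.04 CPM at 2 months and 36.3, 23.6 and 33.0 CPM at 18 months. Lss, the cyclase that forms lanosterol, was at 10.8, 13.5 and 0.143 CPM at 2 months and 0.104, 0.466 and 0 CPM at 18 months (log2 fold change -5.38, SE 2.51, edgeR unadjusted p = 0.0590). Young replicates 1 and 2 held nearly all of its reads. Cyp51, the lanosterol demethylase, was at 12.4 to 31.1 CPM at 2 months and 5.28 to 20.9 CPM at 18 months. Fdft1, squalene synthase, was at 2.63 to 29.5 CPM and 14.1 to 47.8 CPM, and Mvd and Dhcr7 were at 0 in at least 1 library. Reads of Fdft1, Cyp51 and Mvd are uncertain, since the kit does not mark strand and each overlaps a gene at a higher mean on the opposite strand. These genes are Ctsb (3610 CPM), Akap9 (29.0 CPM) and Gm20388 (7.05 CPM).

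Fatty acid synthesis genes were low. Scd2, a stearoyl-CoA desaturase, was at 4.96, 19.2 and 24.6 CPM at 2 months and 30.9, 15.9 and 28.8 CPM at 18 months. Fasn, fatty acid synthase, had 7, 401 and 215 counts in young and 0, 2 and 1 counts in aged libraries. The aged libraries lay wholly below the young ones, but Fasn did not pass the low-count filter. With no filter, its unadjusted p was under 0.05, as was that of Cd5l. Scd1 was at 0.993, 0.0744 and 0.0715 CPM at 2 months and 0, 0 and 0.0353 CPM at 18 months.

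**Figure D4:**
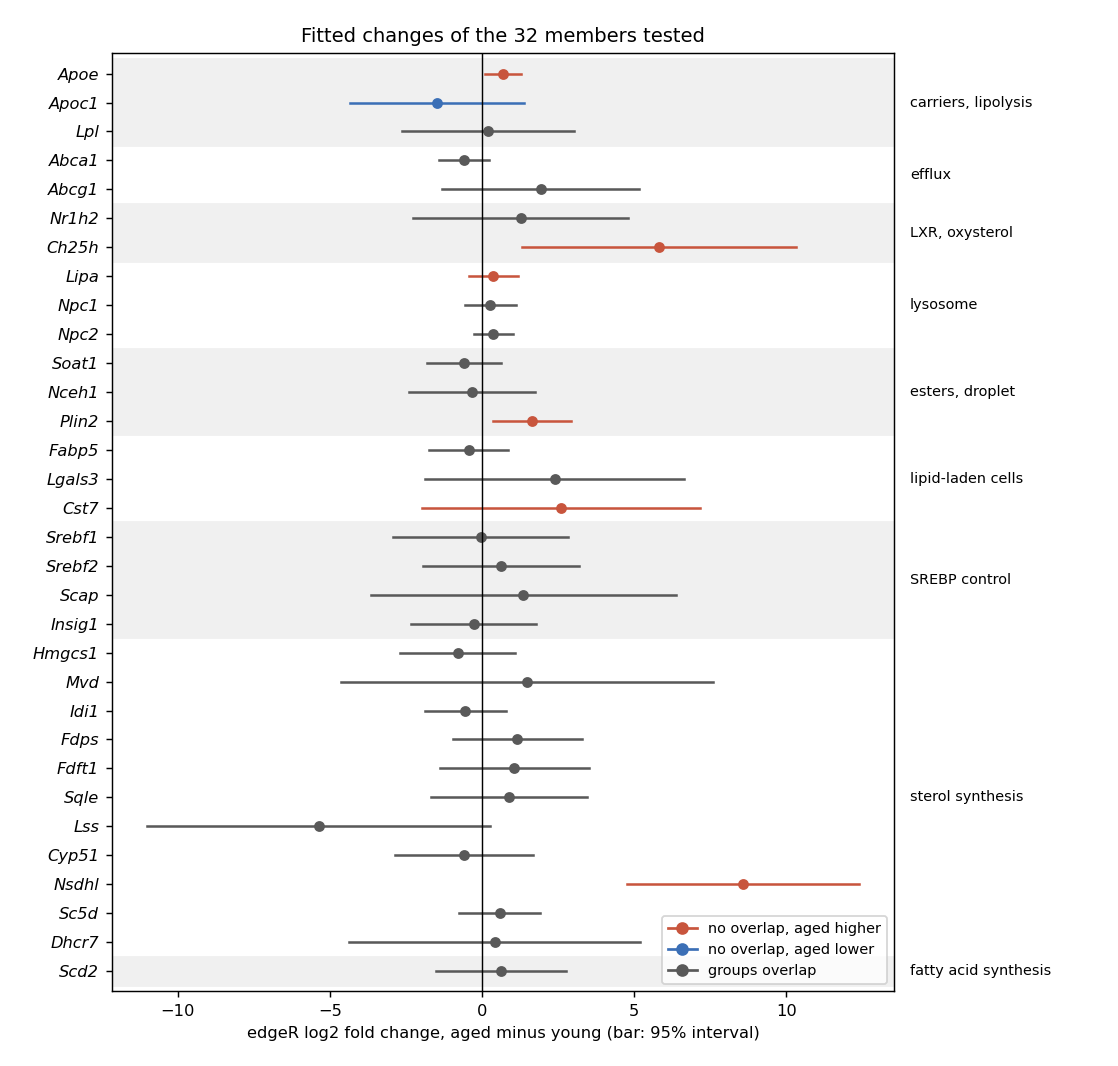
Fitted log2 fold changes (aged minus young) of the 32 members tested, with 95% intervals, by role (red, aged libraries all above young; blue, all below; grey, overlapping). Intervals of Apoe, Ch25h, Plin2 and Nsdhl exclude 0 before adjustment, and sterol enzymes lie on both sides of 0.

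Set beside each other, synthesis and handling genes had similar medians. The median log2 fold change was 0.60 over the 16 synthesis genes tested and 0.37 over the 16 handling genes tested, against -0.02 over all genes. The low-count filter left out 2 synthesis genes, Fasn and Scd1, whose aged levels lay wholly below the young ones. It also left out 3 handling genes, which overlapped between ages. The synthesis median was 0.13 without aged replicate 3 and 0.31 without young replicate 1, and the handling median was 0.63 without young replicate 1. Fitted values above 0 made 62.5% of the synthesis and 68.8% of the handling genes, against 49.3% of all genes. Without overlap and higher with age were 1 of 16 synthesis genes (6.25%) and 5 of 16 handling genes (31.2%), against 7.54% of all genes tested. The share of the synthesis genes is thus near that of all genes. The 5 handling genes include Ch25h, an oxysterol enzyme gene, and Cst7, a lipid-laden macrophage gene. Their share therefore does not describe uptake, storage and efflux alone. The difference between the lists was not tested. Of the members tested, 25% had a library with 3 counts or fewer, against 35.5% of all genes tested.

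The summed level of the sterol enzymes depended on the scale. In CPM the 11 enzymes summed to 306, 293 and 271 in young and 353, 289 and 479 in aged libraries, with overlap through aged replicate 2. In TPM they summed to 60.6, 57.5 and 50.2 in young and 78.4, 122 and 145 in aged libraries, without overlap. On the log2(TPM + 1) scale the median of all genes was itself shifted by 0.22 towards the aged libraries, against -0.02 for the counts. The handling genes other than Apoe summed to 1580, 1496 and 1269 CPM at 2 months and 1575, 1576 and 1966 CPM at 18 months. That sum overlapped between ages.

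Of 67 further genes of these pathways, 53 were tested and edgeR called 0. The DESeq2 Wald test called 1, Acss2, among 154 of 10661 genes called. At an unadjusted p under 0.05 in edgeR, 3 were higher (5.66%, against 3.63% of all genes) and 1 was lower (1.89%, against 2.04%). Their median log2 fold change was -0.02. Pltp, a phospholipid transfer protein gene and LXR target, was at 42.4, 56.5 and 27.5 CPM at 2 months and 82.7, 203 and 133 CPM at 18 months (log2 fold change 1.73, SE 0.50, edgeR unadjusted p = 0.00647, adjusted p = 0.619). Each aged library lay above each young one, but Pltp overlaps Ctsa on the opposite strand, which had a mean of 738 CPM. Elovl1, which elongates very long chain fatty acids, was at 49.5, 89.7 and 77.5 CPM at 2 months and 146, 193 and 220 CPM at 18 months (log2 fold change 1.37, SE 0.40, edgeR unadjusted p = 0.00658, adjusted p = 0.619). The groups did not overlap, and its unadjusted p stayed at or under 0.0318 when any 1 library was left out.

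Fitted directions were mixed in most of the further lists. Of the 11 other sterol synthesis genes, fitted values lay above 0 for 4 (36.4%, against 49.3% of all genes) and below 0 for 7. Their median log2 fold change was -0.15. All 11 overlapped between ages, where 7.54% of all genes were higher and 7.19% lower in each aged library. In the list of other LXR and uptake genes, 3 of 14 tested were higher in each aged library (Pltp, Apoc2 and Scarb1), or 21.4% against 7.54% of all genes, and 0 were lower in each, against 7.19%. Of 5 lipid-sensing nuclear receptor genes other than LXR, 2 were tested, and both had fitted values below 0 with overlap between ages. These were Rora, a circadian and lipid regulator (log2 fold change -2.41, SE 1.60), and Ppard, a fatty acid sensor (-1.74, SE 2.10). The 5 summed to 26.3, 14.5 and 41.4 CPM at 2 months and 8.48, 9.35 and 1.41 CPM at 18 months, without overlap, and in TPM the sums overlapped. Scarb1, a receptor for high-density lipoprotein, was at 0.0715 to 0.782 CPM at 2 months and 0.834, 10.9 and 20.2 CPM at 18 months. Cd36, a scavenger receptor that takes up fatty acids, was at 391, 297 and 443 CPM at 2 months and 114, 77.5 and 371 CPM at 18 months, with aged replicate 3 in the young range. Acss2, which makes acetyl-CoA from acetate, was at 0.768, 1.60 and 20.9 CPM at 2 months and 0, 0.104 and 0 CPM at 18 months (edgeR unadjusted p = 0.0210). The annotated span of Acss2 overlaps those of Ggt7 and Gss on the opposite strand. Shared exons were not examined, so its reads are uncertain. Gss was at 16.5 CPM in young replicate 3, where Acss2 was highest, and at most 3.29 CPM elsewhere. The part of Gss reads in the Acss2 levels was not tested. Scarb1, Cd36, Acss2, Apoc4, Rora and Ppard are named after their values were seen, not by a rule.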

How the data were processed

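RNA of sorted CAMs (13 PCR cycles, a kit that does not mark strand, per the labels' protocols) was analysed from 6 libraries. The submitters' processing notes name mm10, bcl2fastq 2.20, FastQC, fastp, DRAGEN and Picard. The annotation release is not given in the sources used here. The deposited tables held estimated counts, not scaled to depth, and TPM, scaled by the authors, per the file headers. Effective lengths were not used. Counts were rounded to whole numbers. Of the identifiers, 35513 matched GENCODE M21 when versions were ignored.

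Aged and young libraries were compared with edgeR 4.0.16 in R 4.3.3 (filterByExpr, TMM, robust quasi-likelihood F test, Benjamini-Hochberg adjustment over 10661 genes, threshold 0.05, two-sided). SEs were derived by dividing the size of each log2 fold change by the root of F. The edgeR, DESeq2 and limma-voom fits were tested on simulated counts. Alternatives used limma 3.58.1 and DESeq2 1.42.0. Members and lists were chosen with earlier results of these data known. Values in every library are given for members without overlap at a mean of at least 10 CPM, those at an unadjusted p under 0.05, and the 2 most abundant of each role. Other members given in full were chosen after their values were seen. Pathway genes were named if without overlap at a mean of at least 10 CPM, apart from Scarb1, Cd36, Acss2, Apoc4, Rora and Ppard. Floors of 3 counts cover counting error only, since PCR reads without molecular identifiers are not independent molecules.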

Additional observations from a re-analysis of the deposited data

How the results depend on the processing

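Members below a few counts in a library cannot be told from 0 there, with 3 counts worth 0.0777 to 0.112 CPM. Genes called higher and lower across the whole table (1 and 0) numbered 113 and 41 by DESeq2's Wald test. Without a filter there were 51 and 11, and among genes averaging 50 CPM or more there were 19 and 6. limma-voom called 0 (559 higher and 377 lower genes at an unadjusted p under 0.05). Leaving out a library gave 0 to 2 higher and 0 to 1 lower. Members higher at an unadjusted p under 0.05 (4) were 2 at a mean of at least 50 CPM, where 11 members were tested and 10.5% of all genes were higher, and 1 to 6 when a library was left out. The low of 1 was without aged replicate 3 (3.28% of all genes) and the high of 6 without young replicate 1 (4.10% of all genes). Members lower (0) were 1 in DESeq2 (Lss; 3.34% of all genes), 2 of 37 with no filter (Cd5l and Fasn; 4.55% of all genes) and 1 to 2 when a library was left out (1.67% to 3.23% of all genes). These counts of members were added after seeing the data. The median log2 fold changes moved by less than the spread between replicates, the synthesis median lying between 0.13 and 0.88 and the handling median between 0.30 and 0.81. Of the 20 members followed, each under 13 to 15 of the settings, Lpl (0.20) and Insig1 (-0.27) changed sign. Lpl was at -0.17 with the replicate block and ranged over leave-one-out fits from -0.73 to 0.79. Insig1 was at 0.18 on log2(TPM + 1) and ranged over leave-one-out fits from -0.70 to 0.039. The cause was not tested. Across genes, deviations of same-numbered libraries were not correlated (-0.01, -0.03 and 0.02), but choroid plexus markers were high in both replicate 3 libraries. A correlation across genes cannot decide whether libraries were prepared in numbered pairs. The main fit did not pair them. With the replicate block, 1 gene and 0 members were called, and the synthesis median was 0.35.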
